A study of Mus musculus with 5 samples.

Results

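Ribosomal protein genes were examined in forelimb muscle of mouse embryos lacking Noggin, an antagonist of bone morphogenetic proteins, and of wild type controls. Members were the gene symbols beginning with Rpl, Rps or Rplp for the cytosolic ribosome, or with Mrpl or Mrps for the mitochondrial ribosome, each followed by a number. The kinases named Rps6k were left out. This gave 33 of the 4743 genes in the deposited tables, 20 cytosolic and 13 mitochondrial. The groups were 3 Noggin-deficient libraries (NgKo) and 2 wild type control libraries (NgWt), all from C57BL/6 embryos at E15.5 with no treatment named, measured by RNA sequencing of total RNA with a stranded mRNA kit. The labels name neither the allele nor a driver line. They do not say whether the libraries came from separate embryos, pools or litters, so p-values measure only the spread between these libraries, which may be technical.

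Every cell translates its nuclear genes' messages on the cytosolic ribosome, built from ribosomal RNA and ribosomal proteins of a small (Rps) and a large (Rpl) subunit. Messages of most of its proteins start with a terminal oligopyrimidine (TOP) tract, a C followed by further pyrimidines, through which their translation depends on mTOR signalling. The mitochondrial ribosome (Mrps and Mrpl proteins) translates only messages of the mitochondrial genome, which encode core subunits of the respiratory chain, and all of its proteins are imported from the cytosol. Growing muscle makes much protein and many mitochondria, and so uses both machines.

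The values are a normalized, non-negative signal whose unit neither the labels nor the files name. Genes are therefore not ranked by level, except to choose the 2 highest means of each class for naming. Values, sums over genes and ratios of sums are compared only between libraries. The depth behind each value is unknown, and no counting interval can be given. Of the 4743 listed genes, the groups did not overlap for 98.2%, and 98.0% of the 3913 tested genes were called (limma, Benjamini-Hochberg adjusted p under 0.05). The listed genes were therefore chosen beforehand because these same libraries differ in them; the selection rule is nowhere stated in the labels or files. A call of a member adds nothing to its presence in the tables. Nog, the gene of Noggin, was at 0.49, 0.42 and 0.42 in NgKo against 2 and 1.99 in NgWt (log2 change -1.70, limma adjusted p = 2.6e-06), and the listed values summed to between 92210 and 93695 in NgKo against 100792 and 102783 in NgWt.

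Of 91 protein-coding symbols of the cytosolic rule in the GENCODE M21 annotation, 18 were listed (19.8%), and of 78 mitochondrial ones 13 were listed (16.7%). Over all protein-coding symbols of that annotation the count was 4153 of 21877 (19.0%). Rps27 was listed at 1.3 to 1.96 in NgKo, and the symbols Rpl31-ps12, a pseudogene name of Rpl31, and Rpl37rt, a retrotransposed copy of Rpl37, also carried values, while Rpl31, Rpl37 and Rpl3 were not analysed here. The remaining ribosomal proteins were likewise not analysed here.

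Nearly all listed members were higher in Noggin-deficient muscle. Every NgKo library lay above every NgWt library for 19 of the 20 cytosolic and for all 13 mitochondrial members, beside 41.2% of all listed genes. The exception was Rpl3l, lower in every NgKo library, as were 57.1% of all listed genes. The minimum for testing was 0.5 in 2 or more libraries, and 32 members met it. All 19 tested cytosolic and all 13 tested mitochondrial genes were called higher, where 37.9% of all tested genes were called higher and 60.1% lower. No tested member was called lower by limma, and none was lower at an unadjusted p under 0.05.

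In the values as deposited the rises lay close together. The median log2 change was 0.39 over the 19 tested cytosolic genes, with a range of 0.36 to 0.61, and 0.42 over the 13 mitochondrial genes, with a range of 0.36 to 0.74, beside a median of -0.28 over all tested genes. Of the 32 tested members, 29 lay between 0.36 and 0.46, limits chosen after the values were seen, as did 610 of the 1488 tested genes with a positive change (41.0%). This is the lower end of what the tables hold. No tested gene with a mean value of at least 1 had a positive change under 0.29. The median positive change was 0.46 over all tested genes and 0.441 over those with a mean value of at least 1. Below the median of 0.46 were 17 of 19 cytosolic and 12 of 13 mitochondrial genes. Of these, Rpl36a, Mrps16 and Mrps18a were above 0.441. The size depended on the processing. The cytosolic and mitochondrial medians were 0.66 and 0.69 with median-of-ratios factors, which raise the median of all genes by 0.25. They were 0.62 and 0.64 with upper-quartile factors, and 0.20 and 0.32 with the trend on transcript length described below removed. Both sets of factors were computed from the listed genes alone. They moved the median of these selected genes from -0.28 to -0.03 and -0.07, and which scaling is nearer to the tissue was not tested. With other scalings of the libraries the counts of called members were equal: under median-of-ratios scaling all 32 were called higher, beside 38.0% of all genes higher and 70.5% in either direction, and under upper-quartile scaling likewise, beside 38.0% and 76.4%. Higher genes were 1484 of 3836 calls as deposited and 1488 of 2760 under median-of-ratios scaling. Against a 1.5-fold change, limma called 0 of the 19 cytosolic genes (0 at an unadjusted p under 0.05) and 1 of the 13 mitochondrial genes, Mrps6, beside 4.22% of all tested genes called higher and 14.5% in either direction.

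**Figure D1:**
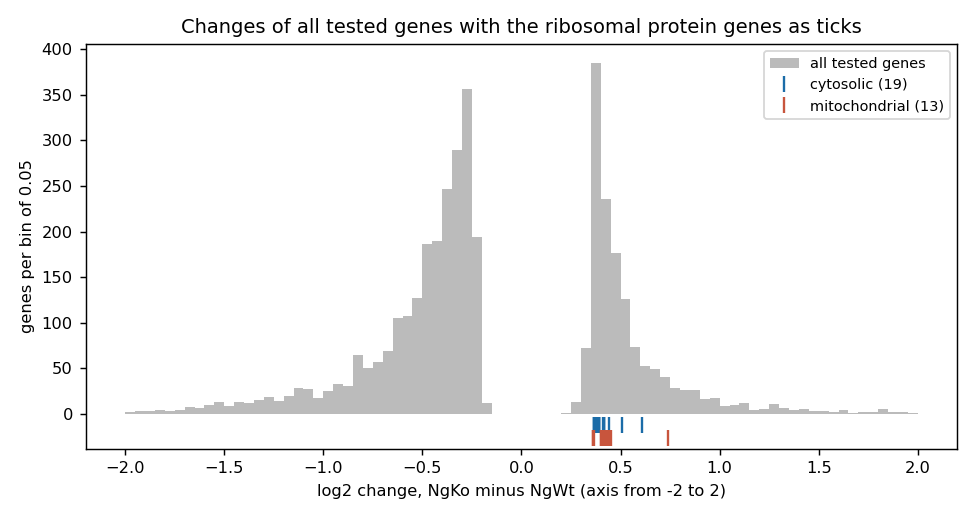
Histogram of the log2 change (NgKo minus NgWt) of all 3913 tested genes in bins of 0.05, drawn from -2 to 2, with the 19 cytosolic and 13 mitochondrial ribosomal protein genes as ticks under the bars. The middle of the histogram is empty, and most ticks lie at the inner edge of the rises, between 0.36 and 0.46.

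The promoters of the members are shown first, because the TOP tract is what the cytosolic class is known to share. RefSeq promoters (GRCm38.p6, a later build than the mm9 of the submitters' processing notes) were found for 13 cytosolic and 10 mitochondrial members. Each line gives 60 bases before and 25 from the annotated start, 5′ to 3′ on the gene's strand. In the first 3, of Rps6 (chr4:86857343-86857427, minus strand), Rpl28 (chr7:4792905-4792989, plus strand) and Rps27 (chr3:90213624-90213708, minus strand), capitals mark the longest run of a C followed by pyrimidines near the start. Rpl31-ps12 (chr16:16820172-16820256, minus strand) is shown as a pseudogene symbol with no such run. In Rpl11 (chr4:136053369-136053453, minus strand) and Mrps18a (chr17:46110944-46111028, plus strand) capitals mark the ETS motif CCGGAAG. Mrps6 (chr16:92058276-92058360, plus strand), the member with the largest rise, had neither.
Rps6: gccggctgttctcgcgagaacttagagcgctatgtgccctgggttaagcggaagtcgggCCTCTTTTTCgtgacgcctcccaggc
Rpl28: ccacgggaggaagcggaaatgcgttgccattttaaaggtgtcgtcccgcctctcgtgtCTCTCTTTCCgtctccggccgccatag
Rps27: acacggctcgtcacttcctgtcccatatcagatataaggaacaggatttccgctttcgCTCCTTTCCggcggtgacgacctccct
Rpl31-ps12: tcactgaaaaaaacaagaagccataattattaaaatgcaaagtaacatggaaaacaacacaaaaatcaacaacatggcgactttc
Rpl11: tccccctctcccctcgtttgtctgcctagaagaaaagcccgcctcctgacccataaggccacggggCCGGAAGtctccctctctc
Mrps18a: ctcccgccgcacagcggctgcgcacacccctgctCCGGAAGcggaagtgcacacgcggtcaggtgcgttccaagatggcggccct
Mrps6: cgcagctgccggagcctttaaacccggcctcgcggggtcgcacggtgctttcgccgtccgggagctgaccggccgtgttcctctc

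A TOP-like start was counted where a C followed by at least 4 bases, each C or T, began within 10 bases of the annotated start on the gene's strand. It was found in 9 of 13 cytosolic promoters (69.2%) and in 4 of 10 mitochondrial promoters (40%), beside 30.8% of all 27025 promoters. Read on the other strand, the same pattern was in 1 of 13 cytosolic and 4 of 10 mitochondrial promoters, beside 34.5% of all. The ETS motif CCGGAAG, on either strand of the window from 250 bases before to 50 after the start, was in 5 of 13 cytosolic (38.5%) and 2 of 10 mitochondrial promoters (20%), beside 9.14% of all. Its reverse, CTTCCGG, holds a C followed by 4 pyrimidines, so a match near the start can count for both. The YY1 motif ATGGCGGC was in 1 of 13 and 1 of 10, beside 2.38%, the TATA box motif TATAAA in 2 of 13 and 1 of 10, beside 14.2%, and the NRF1 motif in 0 of 13 and 0 of 10, beside 0.981%. These are matches of letters and say nothing of whether a factor binds.

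In the small subunit of the cytosolic ribosome, Rps6 is the protein phosphorylated by the S6 kinases. It was at 685, 710.3 and 659 in NgKo against 496 and 529.6 in NgWt, a log2 change of 0.42 with an SE of 0.046 (limma adjusted p = 8.4e-05). Rps15, of the head of the subunit, was at 1086, 1109 and 1089 in NgKo against 803 and 838 in NgWt, 0.42 higher on the log2 scale. For both genes the lowest NgKo value was well above the higher NgWt value, and NgWt 1 was below NgWt 2. Every NgKo library lay above every NgWt library for 41.2% of all listed genes.

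Rps26, which lies at the exit of the messenger RNA channel, was at 1693, 1773 and 1644 in NgKo against 1276 and 1339.6 in NgWt (log2 change 0.38, SE 0.049). Rps24, which is mutated in some patients with Diamond-Blackfan anaemia, rose by 0.39. Rps27a, made as a fusion with ubiquitin, rose by 0.37.

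Rps27 had the largest standard error of the members. It was at 1.3, 1.45 and 1.96 in NgKo against 1.08 and 0.8 in NgWt. Its log2 change of 0.61 had an SE of 0.17 (limma adjusted p = 0.0088), and NgKo 3 was the library farthest from the rest. The call was lost without NgWt 2 (log2 change 0.44, adjusted p = 0.071) and after removal of the trend on transcript length described below (0.31, adjusted p = 0.11). Of its transcript's 50-base stretches, 63.1% also occurred in transcripts of other genes, first of all Rps27rt, so its value is uncertain.

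In the large subunit, Rpl36a had the largest rise among the genes that are neither pseudogene nor retrotransposed symbols. It was at 656, 656 and 623 in NgKo against 454 and 495 in NgWt, a log2 change of 0.44 with an SE of 0.047 (limma adjusted p = 6.7e-05). The values of Rpl31-ps12 were 48.2, 44.5 and 47.0 in NgKo against 32.3 and 33.0 in NgWt, a log2 change of 0.51 (SE 0.038). Rpl37rt was at 65.4, 65.2 and 65.7 in NgKo against 48.7 and 51.5 in NgWt, a log2 change of 0.38. In all 3 the groups did not overlap, as in 98.2% of all listed genes. With the length trend described below removed, the changes were 0.20 for Rpl36a, 0.20 for Rpl31-ps12 and 0.10 for Rpl37rt. Of the 50-base stretches of their transcripts, 69.3% for Rpl31-ps12 and 42.5% for Rpl37rt also occurred in transcripts of other genes, among them Rpl31 and Rpl37, so the values of both are uncertain.

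Rpl11, which with Rpl5 carries the 5S ribosomal RNA and can bind Mdm2 when ribosome assembly fails, was at 249, 258 and 248 in NgKo against 188 and 197 in NgWt, a log2 change of 0.39 (SE 0.034). Rpl17, Rpl19, Rpl21, Rpl27a, Rpl28 and Rpl36 rose by 0.37 to 0.41. Over the 11 cytosolic genes not given library by library by the rule for named genes, the limma adjusted p lay between 1.8e-05 and 0.00018. The median change was 0.39 for the 10 tested large subunit genes and 0.39 for the 9 small subunit genes.

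Rpl3l, the paralog of Rpl3 that is specific to heart and skeletal muscle, went the other way. It was at 0.13 in each of the 3 NgKo libraries against 0.33 and 0.42 in NgWt. These values were under the minimum for testing. With no filter on low values its log2 change was -0.71 (limma adjusted p = 0.00028, beside 55.3% of genes called lower and 95.6% called in either direction), on a scale that understates the change of a value this low. Muscle transcripts were lower in the same libraries, as given below, and their part in the result was not tested. In bulk tissue, fewer cells of a type and less RNA per cell cannot be told apart.

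**Figure D2:**
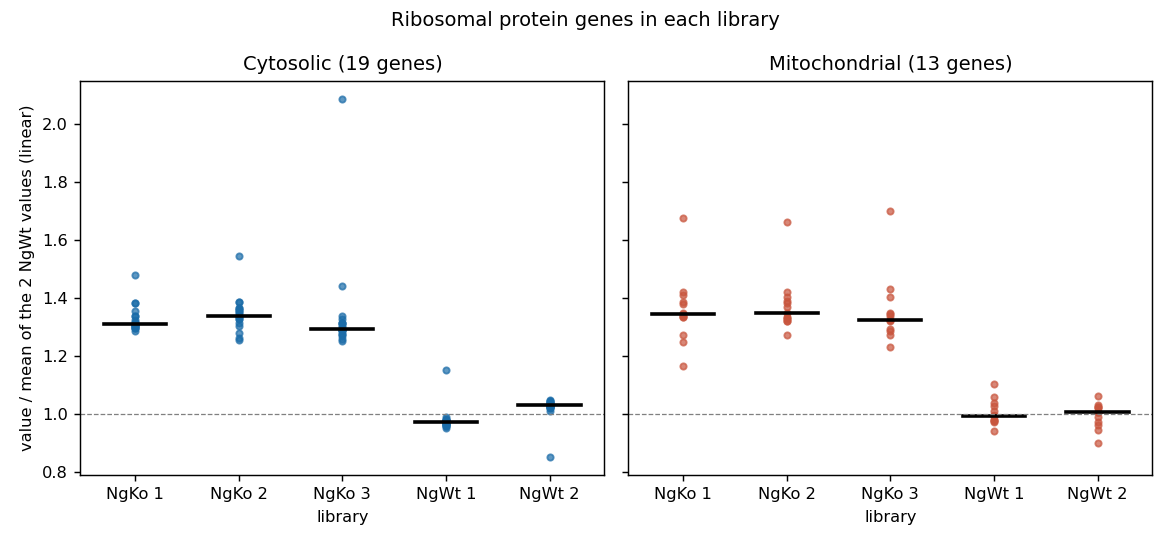
Each point is 1 gene in 1 library, as its value divided by the mean of its 2 NgWt values on a linear axis, for the 19 tested cytosolic and the 13 mitochondrial genes, and black bars are the median over genes. The NgKo libraries lie above the NgWt libraries in both classes, and the cytosolic genes are lower in NgWt 1 than in NgWt 2 apart from Rps27.

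Among the mitochondrial genes, Mrps6, a small subunit protein of bacterial ancestry, had the largest rise. It was at 24.97, 24.8 and 25.4 in NgKo against a mean of 14.9 ± 0.813 (SD, n = 2) in NgWt, whose higher library lay far below the lowest NgKo library, a log2 change of 0.74 with an SE of 0.038 (limma adjusted p = 2.2e-06). It was larger than the change of 81.4% of the tested genes that rose, and it also passed against a 1.5-fold change (limma adjusted p = 0.019). Mrps6 overlaps Slc5a3, the gene of a myo-inositol transporter. Of the 50-base stretches of its transcript, 32.2% also occurred in transcripts of Slc5a3 or of a predicted gene, so the division of reads between them is uncertain. Slc5a3 was at 2.48, 2.37 and 2.51 in NgKo against 1.91 and 1.9 in NgWt, a log2 change of 0.33 with an SE of 0.063 (limma adjusted p = 0.0015).

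Mrps16, a small subunit protein whose loss in patients impairs the respiratory chain, was at 54.6, 53.7 and 51.3 in NgKo against 38.5 and 39.1 in NgWt, a log2 change of 0.45 (SE 0.033). Mrps18a, of 1 of the 3 Mrps18 paralogs, was at 35.2, 36.7 and 35.3 in NgKo against 26.0 and 26.4 in NgWt, a log2 change of 0.45 (SE 0.030). For both, the gap between the groups was larger than the range within either, in tables where the groups did not overlap for 98.2% of all listed genes. Mrps34 was less certain, at 5.48, 5.8 and 6.27 in NgKo against 4.84 and 3.94 in NgWt (log2 change 0.40, SE 0.091). Without NgWt 2 its change was 0.26. Mrps25 and Mrps35 had the smallest rises of the class, 0.36 each.

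In the large subunit of the mitochondrial ribosome, Mrpl28 was measured with the least spread. It was at 50.3, 50.3 and 49.9 in NgKo against 37.6 and 37.9 in NgWt, a log2 change of 0.41 with an SE of 0.025 (limma adjusted p = 4.7e-06). Mrpl11, of the base of the stalk where translation factors bind, was at 12.4, 13.1 and 12.4 in NgKo against 9.33 and 9.14 in NgWt, a log2 change of 0.44 (SE 0.040). Both were higher in each NgKo library than in either NgWt library, as were 41.2% of all listed genes. Mrpl34 was at 34.7, 34.3 and 36.5 in NgKo against 24.5 and 27.6 in NgWt (log2 change 0.43, SE 0.053). The values of Mrpl40 were 27.6, 27.7 and 25.4 in NgKo against 20.5 and 19.4 in NgWt (log2 change 0.43, SE 0.047). Mrpl4, Mrpl46 and Mrpl47 rose by 0.36 to 0.42.

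**Figure D3:**
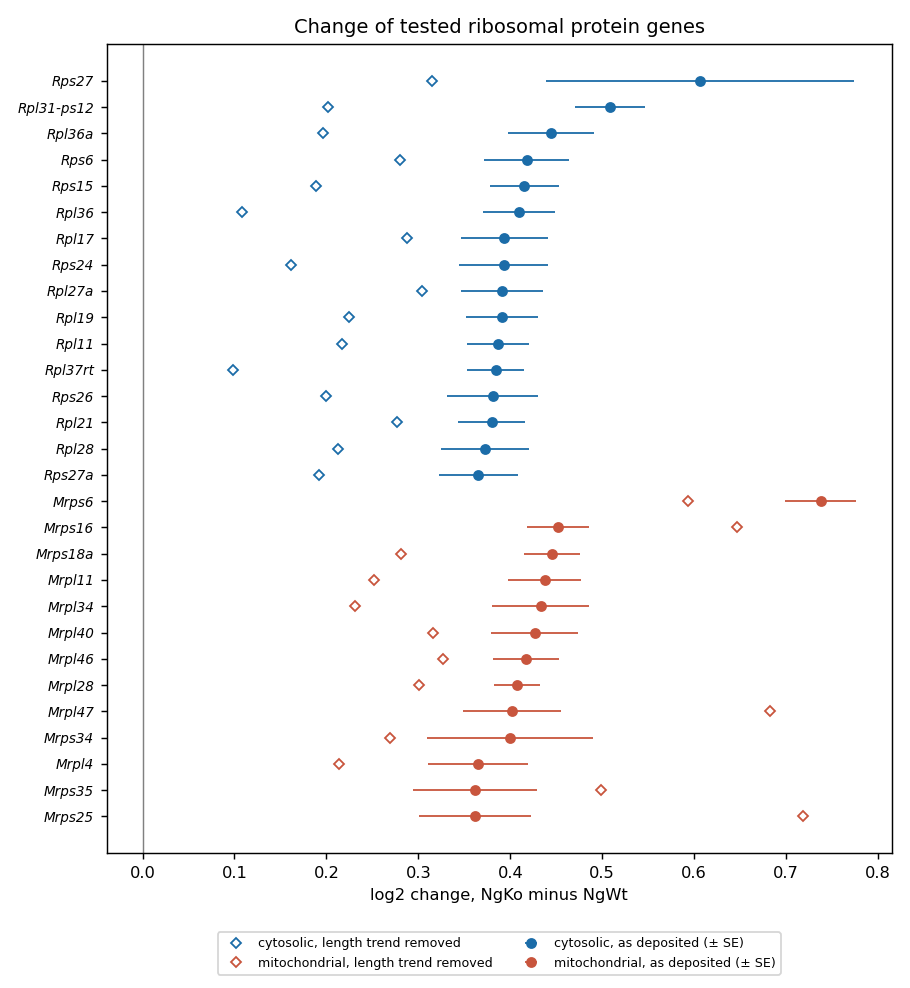
Log2 change (NgKo minus NgWt) of 29 of the 32 tested genes, cytosolic above and mitochondrial below, as filled circles with the standard error of the limma fit, and as open diamonds after removal of the trend on transcript length. Filled circles form a column near 0.4 with Mrps6 and Rps27 to its right, and the diamonds of the cytosolic genes lie further left than most of those of the mitochondrial genes.

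The classes were then set side by side. The median cytosolic change was 0.39 and the median mitochondrial change 0.42, a difference of -0.026 before rounding. For scale, the difference of class medians was also taken in each library, over log2 values centred on each gene. It was -0.014, -0.005 and -0.014 in NgKo against -0.024 and 0.059 in NgWt, with a pooled SD within groups of 0.034. The difference of -0.026 was smaller than this SD of a single library's level. The sign of the difference of changes depended on a wild type library: it was -0.089 without NgWt 1 and 0.013 without NgWt 2. The sum of the cytosolic members was 46.4, 46.6 and 46.0 times the sum of the mitochondrial members in NgKo against 47.1 and 49.4 times in NgWt. The means of this ratio, 46.4 ± 0.314 (SD, n = 3) in NgKo and 48.3 ± 1.64 (SD, n = 2) in NgWt, differed by 1.92, less than the 2.33 between the NgWt libraries. Neither measure separated the classes beyond the spread between libraries.

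The summed members took a larger part of the listed values in Noggin-deficient muscle. The cytosolic genes made up 16.0%, 15.9% and 15.6% of the listed sum in NgKo against 10.8% and 11.2% in NgWt, and the mitochondrial genes 0.344%, 0.341% and 0.340% in NgKo against 0.229% and 0.227% in NgWt. The groups were apart for both. The listed sum itself was lower in NgKo, so these shares differ by more than the values do: the summed values of the cytosolic genes were 1.31 times and those of the mitochondrial genes 1.36 times as high in NgKo as in NgWt.

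The wild type libraries differed in the cytosolic class. Of the 19 tested cytosolic genes, 18 were higher in NgWt 2 than in NgWt 1, by a median of 0.083 on the log2 scale, the exception being Rps27. Over all tested genes 49.3% were higher in NgWt 2 and the median difference was 0. The mitochondrial class did not show the same tilt, with 8 of 13 genes higher in NgWt 2 and a median difference of 0.021. Among NgKo libraries, 15 of 19 cytosolic genes were higher in NgKo 1 than in NgKo 3, by a median of 0.030. For this pair it was 6 of 13 mitochondrial genes and 52.4% of all tested genes. NgKo 2 was above NgKo 3, and above NgKo 1, in 12 of 19 cytosolic genes each, beside 52.5% and 50.1% of all tested genes. The median change of the cytosolic class was 0.35 without NgWt 1 and 0.44 without NgWt 2.

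Transcript length moved with the changes over the whole table. In the shortest eighth of the tested genes (70 to 843 nt by GENCODE M21) 61.1% were higher in NgKo, and in the longest eighth (5253 nt and more) 8.14%. Of the cytosolic genes tested, 14 were in the shortest eighth and 5 in the next, with lengths of 375 to 1158 nt. Of the mitochondrial genes, 4 and 5 were in these eighths, and their lengths ran from 607 to 6073 nt. After removal of a smooth trend on length, the median change was 0.20 for the cytosolic and 0.32 for the mitochondrial genes, beside -0.02 for all genes. All 32 members stayed positive, with 18 of 19 cytosolic and 13 of 13 mitochondrial genes called, beside 37.5% of all genes called higher and 76.2% in either direction. The cytosolic minus the mitochondrial median was then -0.11. The tables hold hardly any change near 0. In genes of 1306 to 1758.5 nt the median change was 0.36, and in those of 1759 to 2296 nt it was -0.27. The trend therefore runs through the gap between rises and falls and follows how many genes rise. A value with the trend removed is not a corrected change of that gene.

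**Figure D4:**
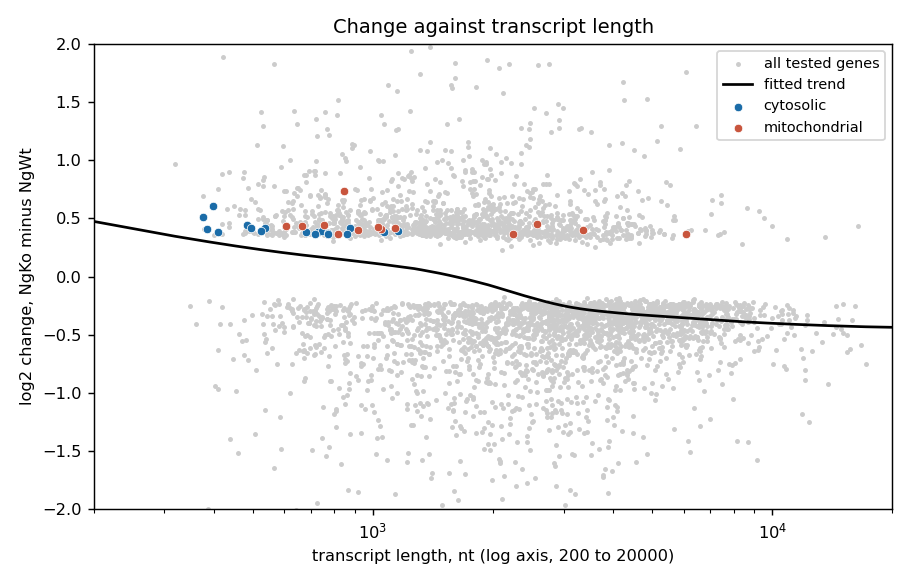
Log2 change (NgKo minus NgWt) against transcript length on a log axis for the tested genes, with the fitted trend as a line. Cytosolic genes sit at the short end between 375 and 1158 nt, while the 4 longest mitochondrial genes, 2247 to 6073 nt, lie at changes of 0.36 to 0.45, well above the trend there.

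The 4 long mitochondrial transcripts were those of Mrps16, Mrps25, Mrps35 and Mrpl47. Their lengths are medians over annotated protein-coding transcripts and were 2572, 6073, 2247 and 3364 nt. The trend is negative at these lengths, and with it removed their changes were 0.65, 0.72, 0.50 and 0.68. The length that was transcribed in this tissue was not measured. The labels give no RNA quality value per library, and the part of length in the result was not tested.

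The classes also differed in how much sequence they share with other genes. Ribosomal protein genes have left many processed pseudogenes in mammalian genomes, and reads from such copies can be counted for the parent gene or lost. Of the 50-base stretches of a cytosolic member's longest transcript, a median of 50.9% occurred in transcripts of another gene, with a highest share of 85.5% for Rpl36a. For the mitochondrial members the median was 0%, and only Mrps6 was over 10%. The labels do not say how reads matching several genes were counted.

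**Figure D5:**
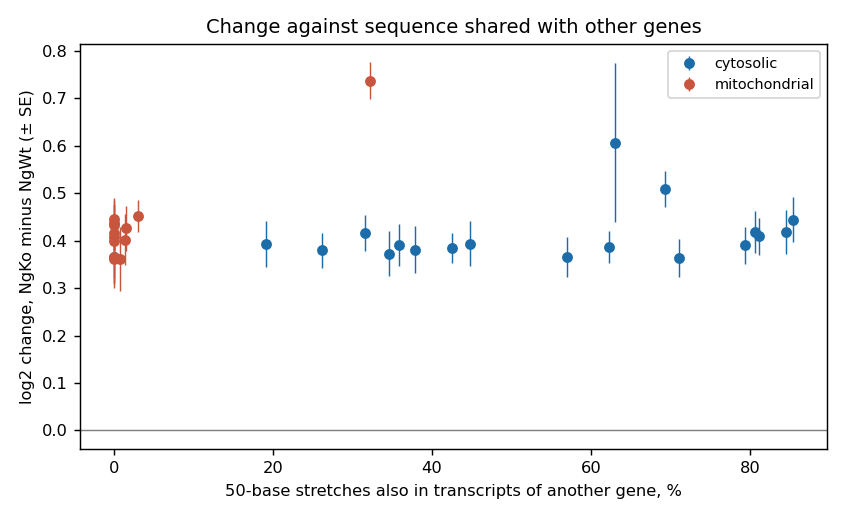
Log2 change (NgKo minus NgWt) with its standard error against the percentage of a transcript's 50-base stretches that also occur in transcripts of another gene, for the 32 tested members. Cytosolic genes spread from 0 to 85.5% and mitochondrial genes, apart from Mrps6, stay under 10%, at changes that mostly lie between 0.36 and 0.46 in both.

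Other genes of the same machinery were few in the tables. Fau, which encodes a small subunit protein fused to a ubiquitin-like domain, was the 1 listed of 5 cytosolic ribosomal proteins with other symbols, and it rose by 0.38. None of 6 mitochondrial ribosomal proteins with other symbols had values. Of 71 genes of ribosome biogenesis and ribosomal RNA, 5 were tested, 4 rose and 1, Gnl3l, fell (log2 change -0.30, but -0.03 under median-of-ratios scaling and -0.07 with the length trend removed). Over all tested genes 37.9% were called higher and 60.1% lower, which also stands beside the counts of the lists that follow. Nop16 was at 28.3, 27.6 and 27.6 in NgKo against 20.03 and 20.1 in NgWt (log2 change 0.47), and Npm1, the nucleolar chaperone nucleophosmin, rose by 0.42. Rn45s, the ribosomal RNA precursor and 1 of the 4 that rose, was at 1412, 1251 and 3362 in NgKo against 824 and 518 in NgWt. It was 1.47 higher on the log2 scale (SE 0.41, limma adjusted p = 0.0087) with NgKo 3 far above the others. The libraries were made with an mRNA kit, so how far the values of Rn45s reflect the amount of precursor is unknown.

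Of 23 genes of cytosolic elongation and other TOP messages, 2 were tested, and both fell. The other 21, among them Eef1a1, Eef2 and Tpt1, were not analysed here, so these 2 do not describe TOP messages as a class. Eef1a2, the elongation factor of mature muscle and neurons, was at 1.33, 1.65 and 1.65 in NgKo against 4.73 and 5.54 in NgWt (log2 change -1.59, limma adjusted p = 7.7e-06). Eef2k, the kinase that inhibits elongation factor 2, had a log2 change of -0.63. Neither encodes a ribosomal protein. Of 48 genes of mitochondrial translation, 7 were tested, 6 rose and 1, Mars2, fell (log2 change -0.32, but 0.09 with the length trend removed). Tufm, the mitochondrial elongation factor, rose by 0.40, and Vars2, a valyl-tRNA synthetase, by 0.36. Lars2 was at 112, 64.1 and 107 in NgKo against 47.8 and 44.2 in NgWt, with NgKo 2 below the other NgKo libraries.

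Of 25 genes of mitochondrial content, 4 were tested. Timm13, of the import machinery, and the chaperonin genes Hspd1 and Hspe1 rose by 0.40, 0.38 and 0.46, and Ppargc1a, a coactivator of mitochondrial biogenesis, had a log2 change of -0.35. Of 19 S6 kinase and mTOR genes, Rictor, of mTOR complex 2, was the 1 tested, at -0.33 on the log2 scale. Under median-of-ratios scaling, which raises the median of all genes by 0.25, the change of Rictor was -0.09 and that of Ppargc1a -0.15. After removal of the length trend, that of Rictor was 0.07.

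Markers of muscle and of other cells differed between the groups beside these genes, in tables where 37.9% of all tested genes were called higher, 60.1% lower and 98.0% in either direction. Of 15 muscle markers, 8 were listed, all were called lower, among them Ckm (log2 change -1.08) and Mybpc1 (-0.94), and they summed to between 4362 and 4528 in NgKo against 6240 and 6309 in NgWt. Under median-of-ratios scaling their changes were smaller, between -0.80 for Ckm and -0.10 for Myh3. Acta1, of skeletal actin, was at 1611, 1629 and 1580.2 in NgKo against 2335 and 2357 in NgWt (log2 change -0.55, and -0.27 under median-of-ratios scaling), so muscle transcripts were present in both groups; Myog, Myod1 and 5 further markers of the list were not analysed here. Of 14 erythroid markers, 6 were listed and called higher, led by Hbb-y (log2 change 1.42) and Hba-x (0.91), summing to between 221 and 227 in NgKo against 95.1 and 99.4 in NgWt. All 8 liver markers were called higher, led by Alb (5.98) and Afp (5.28), with sums of 112 in NgKo against 8.8 to 9.02 in NgWt, where Serpina1a and Fgb were listed at 0. Of 10 epidermis markers, 9 were listed and called lower, led by Hrnr (-3.95) and Lor (-2.89), summing to between 1226 and 1276 in NgKo against 3009.5 and 3011 in NgWt. Under median-of-ratios scaling these ran from -3.70 for Hrnr to -0.22 for Krt14. The part of these cells in the rise of ribosomal protein genes was not tested.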

How the data were processed

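RNA sequencing of E15.5 forelimb muscle gave 1 deposited table per library, for 3 NgKo and 2 NgWt libraries. The deposited values are a normalized signal; its unit, the counter, the annotation and the gene selection are not stated in the labels or files. Among the authors' tools, the submitters' processing notes list STAR 2.4.2a and DESeq2 and the build mm9 without saying what each was used for. Per the labels' protocols, libraries were amplified with 11 cycles of PCR.

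All tables were fitted together with limma 3.58.1 in R 4.3.3 (limma-trend) on log2(value + 0.25), NgKo minus NgWt, for genes at 0.5 or more in at least 2 libraries. Benjamini-Hochberg adjusted p-values run over all 3913 tested genes. The procedure was tested on simulated data in which few genes changed, whereas 98.0% of the tested genes here were called. That test therefore does not bear on the calls in these tables. Fold changes on this scale understate those of low genes. Transcript lengths and 50-base stretches came from GENCODE M21 transcripts, promoters (250 bases before and 50 from the most upstream start) from RefSeq. The length trend was a loess fit of the change on log2 length (span 0.5). Values per library were given for the 6 largest rises and 2 highest means of each class, paralogs, members against their class and members under the minimum, and for lists the 2 smallest p; some members are counted but not reported by name here. Rpl37rt, Rpl11, Mrps34, Slc5a3, Acta1, Rn45s, Lars2 and other genes named besides were chosen after their values were seen. Alternatives were other pseudocounts, filters and scalings, no intensity trend, a 1.5-fold threshold, the length trend, a replicate block and leaving out each library. The members and lists were chosen with earlier results of these data known.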

Additional observations from a re-analysis of the deposited data

How the results depend on the processing

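The 32 tested members were positive in every alternative fit given here, and with a pseudocount of 0.1 and without the intensity trend; a minimum of 2 left Rps27 untested and the other 31 positive. Against a 1.5-fold change, 0 cytosolic and 1 mitochondrial genes were called higher, beside 4.22% of all tested genes higher and 14.5% in either direction. With no filter on low values 1 cytosolic gene, Rpl3l, was called lower, beside 55.3% of all genes lower and 95.6% in either direction. The cytosolic median of 0.39 became 0.66 with median-of-ratios factors, 0.62 with upper-quartile factors and 0.20 with the length trend removed. The mitochondrial median of 0.42 was 0.69, 0.64 and 0.32 in the same order, and 0.40 with a pseudocount of 1. These factors, computed from the selected genes of the tables alone, raised the median of all genes by 0.25 and 0.21. The difference of the medians, -0.026, was -0.11 with the length trend removed, a value that carries the limit of that trend given above. Its cause was not tested. Leaving out 1 library at a time gave 18 to 19 cytosolic and 13 mitochondrial calls, beside 1404 to 1470 of all 3913 tested genes called higher, cytosolic medians of 0.35 to 0.44, mitochondrial medians of 0.41 to 0.43 and differences of -0.089 to 0.013. With the replicate numbers as a block, 19 and 13 genes were called higher, beside 1468 of all 3913 genes called higher and 3772 in either direction, with medians of 0.41 and 0.42. The labels do not say that the numbers pair libraries, and the differences between numbers 1 and 2 in NgKo and NgWt had r = -0.11 across 3913 genes. Leaving out Rpl37rt and Rpl31-ps12, an alternative chosen after seeing the data, left the cytosolic median at 0.39. Rps27 lost its call without NgWt 2 and with the length trend removed. The unknown depth leaves low values such as those of Rps27 and Rpl3l without an error of counting.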
